A study of Homo sapiens with 6 samples.

Results

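The tripartite motif (TRIM) genes described here are the protein-coding genes whose symbol is TRIM followed by a digit. Of 30949 genes in the deposited table, 66 met that definition. Polyadenylated RNA was sequenced from human astrocytes cultured as floating aggregates in alginate capsules. Their source was WTC11, a widely used induced pluripotent line of wild-type genotype. For 48 hours, 3 cultures received ITC, which joins the cytokines interleukin 1 alpha and TNF alpha with complement C1q, and 3 cultures received vehicle. Per the series text, each of several capsule batches was split across both treatments, and all derive from 1 cell line. The comparison asks which TRIM transcripts differ after ITC.

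TRIM proteins carry a RING finger, 1 or more B-boxes and a coiled coil, followed by a C-terminal domain that differs between subfamilies. Most are ubiquitin ligases, with the RING recruiting the ubiquitin-charged enzyme and the C-terminal domain binding the target. The family is best known for antiviral defence and for tuning interferon and NF-kappa-B signaling. In the nervous system some members organise microtubules in axons, and others repress transcription or RNA in progenitor cells.

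Libraries held 17398921 to 29941685 counts. Levels of 1 gene across libraries are given as CPM (counts relative to the TMM-scaled library size), with the mean ± SD of n = 3 libraries per group. Each change is a log2 ratio, ITC over vehicle, with its SE, tested with edgeR's quasi-likelihood test. A gene was called at a Benjamini-Hochberg adjusted p under 0.05 over all tested genes. Of 9 astrocyte markers, all were detected in both groups, but 7 fell, 1 rose (SOX9, 0.85 ± 0.21) and 1, GFAP, was not called, at 106 ± 19.6 CPM in ITC and 121 ± 25.9 CPM in vehicle. The water channel gene AQP4 fell most, to 19.7 ± 2.94 CPM in ITC, against 166 ± 19.4 CPM in vehicle. The summed level of these markers was 1586 to 2002 CPM in ITC and 1747 to 2064 CPM in vehicle. SOX9 alone averaged 1099 ± 210 CPM in ITC and 611 ± 157 CPM in vehicle, so the sum does not show the level of the other markers. Of 8 markers of microglia and myeloid cells, 3 had no row (P2RY12, PTPRC and TYROBP) and AIF1 had no count in ITC and 4 counts in vehicle. ITGAM, the single one tested, rose (75 counts in ITC and 11 in vehicle), and CSF1R had 42 counts in ITC and 16 in vehicle. CX3CR1 had 3 counts in ITC and 15 in vehicle, and TMEM119 had 3 in ITC and 5 in vehicle, so the direction differed between markers. The summed level of the myeloid markers was 1.72 to 2.83 CPM in ITC and 0.603 to 0.891 CPM in vehicle. In these bulk samples, fewer cells of a type and less RNA per cell cannot be told apart.

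Of the 66 genes, 48 passed the filter on low counts and were tested. In ITC, 17 of them rose and 9 fell, while 22 were not called. The called share was 54.2% of the tested TRIM genes, against 39.4% of all 16756 tested genes. It was 35.4% for rises, against 20.4% of all genes, and 18.8% for falls, close to the 19% of all genes. A change of at least 2-fold was found for 12 of the 17 that rose and for 3 of the 9 that fell. The median change of the 48 was 0.28, against -0.01 for all tested genes. The CPM ranges of the groups did not overlap for 29 of the 48, or 60.4%, against 50.1% of all tested genes. The rises and falls depend in part on scaling. Scaled by library size alone, 14 TRIM genes were higher and 13 lower, while 2282 of all genes were higher and 4804 lower. The higher share was then 51.9% of called TRIM genes and 32.2% of all called genes, against 65.4% and 51.9% with TMM. The median of all tested genes moved by -0.23. With upper quartile scaling the split was 16 and 10, against 2662 and 4059 for all genes, and the median moved by -0.14. The number of falls was 5 without ITC replicate 1 (2602 for all genes). It was also 5 without vehicle replicate 2 (2666 for all genes), against 9 and 3176 with all libraries.

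**Figure D1:**
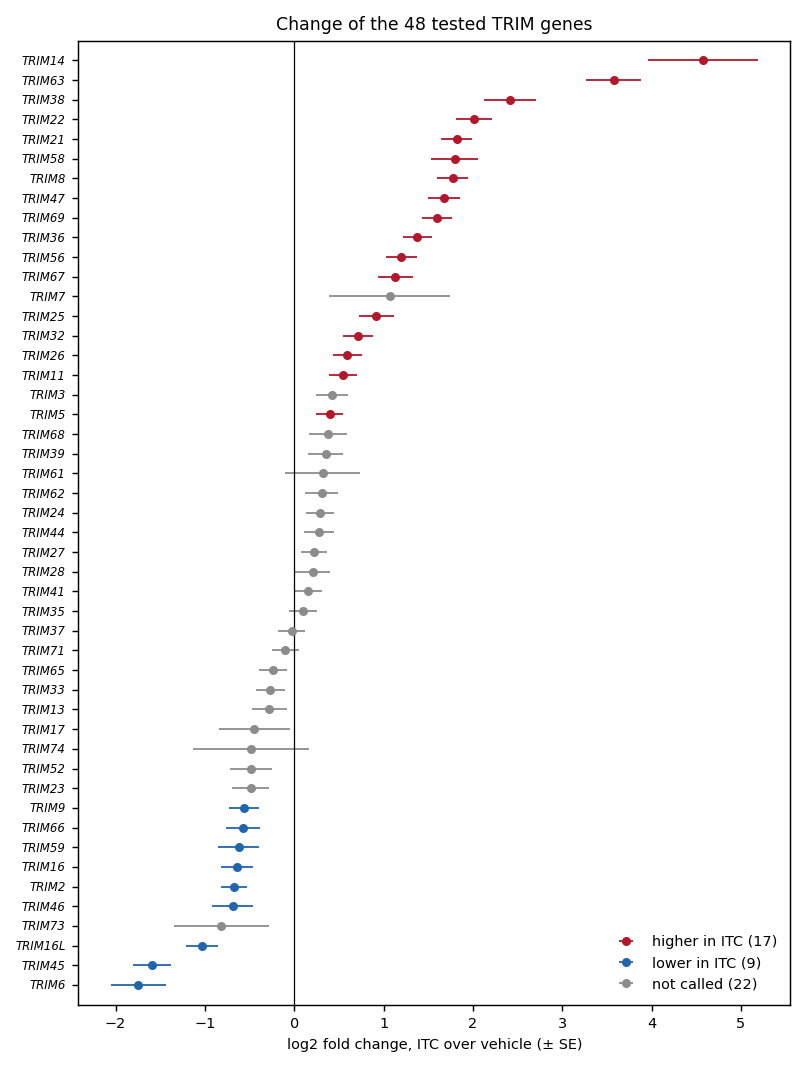
Change of each of the 48 tested TRIM genes, as log2 of ITC over vehicle (x axis) with its SE from the edgeR fit. Colors mark the 17 genes that rose, the 9 that fell and the 22 not called; TRIM14 stands highest at 4.57 and TRIM6 lowest at -1.75.

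A list of 10 members known to be interferon-inducible was set from general knowledge, with earlier results of these data in view, and all 9 that were tested rose, with a median change of 1.60; of all tested genes, 20.4% rose. Since earlier results were known when it was set, the list is not independent evidence of its direction. The tenth, TRIM34, had no count in ITC and 3 in vehicle, and 83.0% of its exon bases also belong to the TRIM6-TRIM34 readthrough gene, which had no row, so its count may not reflect its transcription. The summed level of the list was 519 to 593 CPM in ITC and 231 to 270 CPM in vehicle.

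TRIM14, an adaptor that joins the mitochondrial antiviral protein MAVS, had 10.3, 7.39 and 6.55 CPM in ITC replicates 1, 2 and 3, against 0.835, 0.262 and 0 CPM in vehicle replicates 1, 2 and 3. It was nearly silent in vehicle, with 18, 5 and 0 counts, and each ITC library lay far above. The change of 4.57 ± 0.62 (edgeR adjusted p = 3.4e-05) was the largest among the TRIM genes and rests on few vehicle counts. It was 6.23 without vehicle replicate 1 and 3.78 without vehicle replicate 3, with adjusted p = 1.0e-07 and 1.4e-07, and 5.98 with limma-voom (adjusted p = 0.00014). Over all its alternatives the adjusted p ranged from 9.9e-33 to 0.0033. TRIM38, which restrains inflammatory receptor signaling, had 5.77, 7.22 and 7.26 CPM in ITC and 1.02, 1.10 and 1.61 CPM in vehicle. All 3 ITC libraries exceeded the highest vehicle library, for a change of 2.41 ± 0.29 (edgeR adjusted p = 1.1e-05).

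TRIM22, an interferon-induced restriction factor of retroviruses, had 61.1, 59.0 and 71.0 CPM in ITC and 14.8, 11.7 and 20.6 CPM in vehicle. Its lowest ITC library was well above its highest vehicle library, and it rose by 2.01 ± 0.20 (edgeR adjusted p = 1.5e-06). TRIM21, the cytosolic antibody receptor that sends antibody-coated virus to the proteasome, had 21.2, 19.8 and 21.9 CPM in ITC and 5.80, 5.77 and 6.25 CPM in vehicle. Libraries of each group were tightly grouped for this gene, and the rise was 1.82 ± 0.18 (edgeR adjusted p = 1.1e-06). TRIM69, known for restricting vesicular stomatitis virus, had 133, 125 and 119.6 CPM in ITC and 34.9, 39.7 and 50.3 CPM in vehicle. It rose by 1.60 ± 0.17 (edgeR adjusted p = 2.7e-06), again with no overlap.

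TRIM56, a ligase of antiviral DNA and RNA sensing, had 161, 166 and 141 CPM in ITC and 81.0, 67.1 and 55.3 CPM in vehicle, a rise of 1.20 ± 0.17. TRIM25, the ligase that acts with RIG-I and with the RNA-binding antiviral protein ZC3HAV1, had 90.2, 79.3 and 58.9 CPM in ITC and 50.3, 39.4 and 31.2 CPM in vehicle. Replicate 3 was the lowest of its group in both treatments, and the groups still did not overlap (0.92 ± 0.20, edgeR adjusted p = 0.0020). TRIM26, which acts on interferon regulatory factor 3, had 66.5, 58.5 and 52.8 CPM in ITC and 46.3, 36.7 and 34.7 CPM in vehicle. Its rise of 0.59 ± 0.16 (edgeR adjusted p = 0.0098) was not called when vehicle replicate 2 was left out (0.51, adjusted p = 0.087) or with library size alone (0.36, adjusted p = 0.076). Over all alternatives the adjusted p of TRIM26 ranged from 0.00049 to 0.087.

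TRIM5, whose protein binds retroviral capsids, had 44.5, 43.6 and 40.2 CPM in ITC and 35.0, 31.8 and 30.8 CPM in vehicle. The groups were separate but close, and the change of 0.39 ± 0.15 was at the edge of the threshold (edgeR adjusted p = 0.045). Its call was lost in 12 of 15 alternative fits, including each fit that left out 1 library, with adjusted p between 0.013 and 0.38 over all alternatives. Without vehicle replicate 2 the change was 0.34 (adjusted p = 0.23), and without vehicle replicate 3 it was 0.31 (adjusted p = 0.15).

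**Figure D2:**
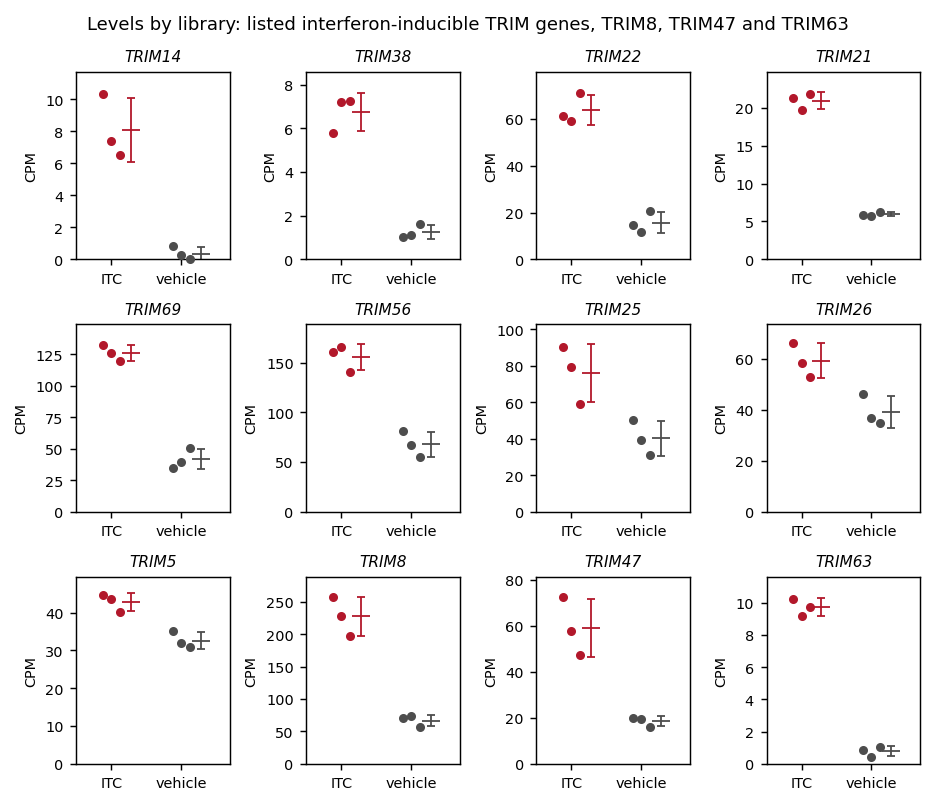
CPM by library (points, replicates 1 to 3 from left to right) with mean ± SD beside them, for ITC and vehicle (n = 3 each), for the 9 tested interferon-inducible TRIM genes and for TRIM8, TRIM47 and TRIM63. In every panel the lowest ITC library lies above the highest vehicle library; in TRIM5 these are 40.2 and 35.0 CPM.

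The interferon-stimulated response element is the DNA site bound by interferon regulatory factors, and its core was searched as a GAAA repeat with a gap of 2 bases on both strands of RefSeq windows from 250 bases before to 50 bases after each annotated start (GRCh38.p14). Of the 66 genes, 49 had a window and 17, TRIM22 and TRIM8 among them, had none here. The core was present for 9 of the 49 genes (18.4%), against 4.38% of all 27305 genes with windows. It was found in 5 of 14 genes that rose, 2 of 7 that fell, 1 of 17 not called and 1 of 11 not tested. All 5 of the risers, TRIM5, TRIM14, TRIM21, TRIM26 and TRIM69, belong to the interferon-inducible list. These matches are a description of letters and not of binding. The stretches that hold them in 7 of the genes are shown 5′ to 3′ on the gene's strand, with the matches in capitals, so that the risers can be set beside TRIM34, which was not tested, and TRIM2, which fell. In TRIM21 and TRIM26 there are 2 matches that overlap each other.
TRIM14 (chr9:98119223-98119322, minus strand): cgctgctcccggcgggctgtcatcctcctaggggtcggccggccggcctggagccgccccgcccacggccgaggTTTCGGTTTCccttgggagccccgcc
TRIM21 (chr11:4393663-4393692, minus strand, bases 11 to 40 after the start): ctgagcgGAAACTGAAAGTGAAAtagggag
TRIM69 (chr15:44736428-44736527, plus strand): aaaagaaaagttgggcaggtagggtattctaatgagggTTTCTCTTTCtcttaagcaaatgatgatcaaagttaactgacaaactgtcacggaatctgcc
TRIM5 (chr11:5685075-5685174, minus strand): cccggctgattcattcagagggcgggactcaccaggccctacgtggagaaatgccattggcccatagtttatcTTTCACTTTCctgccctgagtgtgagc
TRIM26 (chr6:30213507-30213606, minus strand): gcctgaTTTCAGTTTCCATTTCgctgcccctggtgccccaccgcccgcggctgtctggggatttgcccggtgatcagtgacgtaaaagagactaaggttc
TRIM34 (chr11:5624901-5625000, plus strand): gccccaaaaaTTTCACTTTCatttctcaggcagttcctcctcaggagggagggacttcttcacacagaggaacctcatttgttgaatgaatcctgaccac
TRIM2 (chr4:153151913-153152012, plus strand): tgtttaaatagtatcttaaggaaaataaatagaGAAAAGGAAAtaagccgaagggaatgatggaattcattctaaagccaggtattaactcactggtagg

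TRIM5 and TRIM34 hold the same 10 letters, TTTCACTTTC; the low count of TRIM34 has the limit of the shared exon bases given above. The core was also present in TRIM16, which fell, and in TRIM44, which was not called. The kappa-B site of NF-kappa-B, searched on both strands in 3 common forms, was found in 1 of the 49 genes, TRIM31, against 0.531% of all genes. The STAT site TTCNNNGAA was found in 9 of the 49 (18.4%), against 9.38% of all genes, and in none of the 14 genes that rose. It was present in TRIM2, TRIM16 and TRIM46, which fell, and in TRIM3 and TRIM7, which were not called. The others, TRIM49, TRIM49B, TRIM49C and TRIM64B, were not tested for a change. Whether the groups of genes differ in this site was not tested.

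TRIM8 and TRIM47 rose to rank among the most abundant members. TRIM8, a ligase that promotes NF-kappa-B activation by tumor necrosis factor and interleukin 1, had 257, 229 and 197 CPM in ITC and 71.0, 73.0 and 56.2 CPM in vehicle. Every ITC library was far above every vehicle library, and the rise was 1.77 ± 0.17 (edgeR adjusted p = 1.1e-06). TRIM47, also named for its overexpression in astrocytoma, had 72.6, 57.8 and 47.3 CPM in ITC and 20.1, 19.5 and 16.0 CPM in vehicle. It rose by 1.68 ± 0.18 (edgeR adjusted p = 4.1e-06), with ITC replicate 3 the lowest of its group. Antisense gene AC087289.5 overlaps 51.5% of the TRIM47 exon bases but had 23 counts in ITC and 17 in vehicle in all.

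Further genes that rose are known from other tissues or from the cytoskeleton. TRIM63, the muscle atrophy ligase MuRF1, had 10.3, 9.16 and 9.74 CPM in ITC and 0.881, 0.419 and 1.05 CPM in vehicle. This was a shift of 3.58 ± 0.31 (edgeR adjusted p = 3.4e-07), the smallest p among the TRIM genes. The other muscle members did not follow to a measurable level: TRIM54 had 0 counts in ITC and 3 in vehicle, TRIM55 had 6 in each group, and TRIM72 had 6 counts, all in ITC replicate 1, and 0 in vehicle. TRIM58, a ligase known from red cell maturation, had 10.4, 11.4 and 9.86 CPM in ITC and 4.31, 2.20 and 2.60 CPM in vehicle, a rise of 1.79 ± 0.26.

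TRIM36, a microtubule-associated ligase, had 26.7, 31.6 and 29.8 CPM in ITC and 11.6, 11.4 and 11.1 CPM in vehicle. It rose by 1.38 ± 0.16 (edgeR adjusted p = 8.0e-06), with a vehicle SD of only 0.254 CPM. TRIM67, a partner of the netrin receptor DCC in neurons, had 11.3, 11.4 and 11.6 CPM in ITC and 5.01, 5.92 and 4.80 CPM in vehicle, a rise of 1.13 ± 0.20. TRIM32, mutated in a limb-girdle muscular dystrophy, had 35.5, 34.6 and 27.2 CPM in ITC and 22.9, 18.4 and 18.1 CPM in vehicle (0.71 ± 0.17, edgeR adjusted p = 0.0042). TRIM11, a ligase of protein quality control, had 43.8, 40.3 and 35.7 CPM in ITC and 27.1, 30.1 and 25.1 CPM in vehicle (0.54 ± 0.16, edgeR adjusted p = 0.013). For both genes the groups did not overlap, and TRIM11 was not called with scaling by library size alone (0.31, adjusted p = 0.12), within a range of 0.0020 to 0.12 over its alternatives.

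The genes that fell included 2 of the most abundant. TRIM9, a brain ligase that limits axon branching, had 282, 306 and 263 CPM in ITC and 489, 429 and 338 CPM in vehicle. It fell by 0.56 ± 0.17 (edgeR adjusted p = 0.017), with vehicle replicate 3 the closest to the ITC libraries. Its call was lost in 4 of the fits that left out a library, with the fall between 0.45 and 0.58: adjusted p was 0.051 without ITC replicate 1, 0.068 without ITC replicate 3, 0.061 without vehicle replicate 1 and 0.062 without vehicle replicate 2. Over all its alternatives that p ranged from 0.00076 to 0.068.

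TRIM2, which ubiquitinates neurofilament light chain and carries NHL repeats, had 107, 129.8 and 122 CPM in ITC and 194, 189.9 and 189 CPM in vehicle. The vehicle libraries lay within a few CPM of each other, and all ITC libraries were clearly below (-0.67 ± 0.15, edgeR adjusted p = 0.0024). TRIM46, which bundles microtubules at the axon initial segment, had 5.70, 6.72 and 5.25 CPM in ITC and 7.38, 9.12 and 11.9 CPM in vehicle. Its change of -0.69 ± 0.23 (edgeR adjusted p = 0.028) was not called without ITC replicate 1 (adjusted p = 0.080), without ITC replicate 3 (0.082) or without vehicle replicate 3 (0.088), and its p ranged from 0.0060 to 0.088 over the alternatives.

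TRIM3, an NHL-repeat relative of TRIM2, had 33.9, 22.8 and 25.3 CPM in ITC and 22.8, 19.1 and 19.4 CPM in vehicle and was not called (0.42 ± 0.18, edgeR adjusted p = 0.080). The list of 6 members tied to neurons and the cytoskeleton was split, with TRIM36 and TRIM67 higher, TRIM2, TRIM9 and TRIM46 lower, and TRIM3 not called. Of 8 tested neuron markers, 4 fell in the same libraries, none rose, and STMN2, TUBB3, ELAVL3 and SYN1 were not called. The summed level of the list was 276 to 374 CPM in ITC and 812 to 1058 CPM in vehicle. MAP2 averaged 238 ± 36.8 CPM in ITC and 700 ± 88.3 CPM in vehicle. DCX averaged 34.3 ± 13.4 CPM in ITC and 159 ± 40.7 CPM in vehicle. The sum rests mainly on MAP2 and DCX, so it does not show the level of the other markers. RBFOX3, the ninth, had 17 counts in ITC and 25 in vehicle. The part of neuronal transcripts in the TRIM changes was not tested.

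TRIM6, a ligase whose free ubiquitin chains activate the kinase IKBKE, had 1.52, 1.67 and 2.36 CPM in ITC and 8.21, 4.45 and 5.94 CPM in vehicle. It showed the deepest fall, 1.75 ± 0.31 on the log2 scale (edgeR adjusted p = 0.00039), and 29.3% of its exon bases also belong to the TRIM6-TRIM34 readthrough gene, which had no row. TRIM45, a filamin-repeat member, had 4.55, 4.83 and 3.72 CPM in ITC and 11.3, 13.0 and 15.3 CPM in vehicle, with the groups far apart (-1.59 ± 0.21, edgeR adjusted p = 3.2e-05).

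TRIM16, which marks damaged lysosomes for autophagy, and its truncated relative TRIM16L lie on chromosome 17 and share sequence, so reads may be divided uncertainly between them. TRIM16L had 10.9, 12.3 and 9.68 CPM in ITC and 25.1, 23.0 and 19.3 CPM in vehicle (-1.04 ± 0.18, edgeR adjusted p = 0.00033). TRIM16 had 8.56, 8.11 and 7.97 CPM in ITC and 12.3, 13.8 and 12.2 CPM in vehicle (-0.64 ± 0.18, edgeR adjusted p = 0.012). Both were lower in all 3 ITC libraries than in any vehicle library. TRIM16 was not called without ITC replicate 2 (-0.62, adjusted p = 0.055) or without vehicle replicate 2 (-0.61, adjusted p = 0.059), at the upper end of a range that began at 0.0017, and 28.7% of its exon bases overlap other genes.

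TRIM59, a membrane-anchored member linked to proliferation, had 7.22, 5.44 and 8.68 CPM in ITC and 11.6, 12.7 and 8.64 CPM in vehicle. It was the only called TRIM gene whose groups overlapped, since ITC replicate 3 exceeded vehicle replicate 3 (-0.62 ± 0.23, edgeR adjusted p = 0.044). The call was lost with limma-voom (adjusted p = 0.053), without ITC replicate 1 (0.10), without ITC replicate 2 (-0.45, adjusted p = 0.21), without vehicle replicate 1 (0.076) and without vehicle replicate 2 (0.15), and the lowest p of any alternative was 0.0071. SMC4, a condensin gene on the opposite strand that shares 19.8% of the TRIM59 exon bases, fell by 1.31 ± 0.22, to 25.4 ± 8.78 CPM in ITC, against 63.0 ± 5.07 CPM in vehicle. Reads of the pair cannot be told apart where counting ignored strand, which is not given in the sources used here. All 7 markers of dividing cells fell in these libraries, with a summed level of 92.6 to 105 CPM in ITC and 606 to 633 CPM in vehicle, and their part in the change of TRIM59 was not tested.

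**Figure D3:**
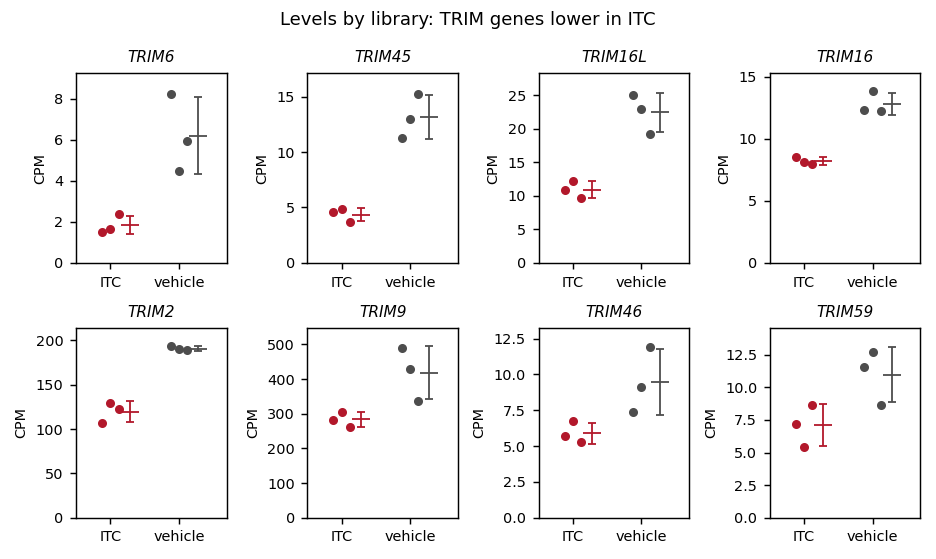
CPM by library (points, replicates 1 to 3 from left to right) with mean ± SD beside them, for ITC and vehicle (n = 3 each), for 8 of the 9 TRIM genes that fell. Groups are separate in every panel except TRIM59, where ITC replicate 3 (8.68 CPM) is just above vehicle replicate 3 (8.64 CPM).

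Members that act on chromatin changed little. TRIM28, or KAP1, the co-repressor that silences retroelements through KRAB zinc finger proteins, had 385, 323 and 270.5 CPM in ITC and 341, 298 and 209 CPM in vehicle. The groups overlapped and the change of 0.21 ± 0.20 was not called (edgeR adjusted p = 0.44). TRIM24 (0.28 ± 0.16) and TRIM33 (-0.27 ± 0.16), co-regulators of nuclear receptors and of SMAD signaling, were not called either, although in each the groups were separate. TRIM66, the least abundant of the 4 PHD-bromodomain members, had 6.98, 8.83 and 8.91 CPM in ITC and 10.8, 13.3 and 12.8 CPM in vehicle (-0.58 ± 0.19, edgeR adjusted p = 0.030). That call was lost without ITC replicate 1 (-0.45, adjusted p = 0.089), without ITC replicate 2 (0.068) and without vehicle replicate 2 (0.10), and the lowest p of its alternatives was 0.0058. The 13 tested partners of KAP1 in heterochromatin had a median change of 0.03, and 3 of them rose, 1 fell and 9 were not called. Among all tested genes, 39.4% were called, with 20.4% higher and 19% lower. CHD3 rose by 0.81 ± 0.17, CHD4 by 0.74 ± 0.20 and MORC2 by 0.67 ± 0.17, while CBX1 fell by 0.50 ± 0.16. The most abundant partners by CPM that were not called were CBX5 (0.00 ± 0.17) and HDAC2 (-0.03 ± 0.16).

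Per kilobase, TRIM28 was the most abundant member in both groups, at 83.5 ± 16.2 FPKM in ITC and 71.9 ± 18.5 FPKM in vehicle (SD, n = 3). TRIM9 was the second, at 32.7 ± 2.69 FPKM in ITC and 48.0 ± 9.75 FPKM in vehicle. Below them the order of FPKM levels differed between the groups. TRIM8 was at rank 3 in ITC (24.6 ± 3.65 FPKM) and rank 10 in vehicle (7.16 ± 1.11 FPKM), and TRIM47 was at rank 4 in ITC (19.5 ± 4.52 FPKM) and rank 15 in vehicle (6.04 ± 0.839 FPKM). In ITC the SDs of TRIM8 and TRIM47 overlapped, as did those of TRIM47 and TRIM37. TRIM2 was at rank 10 in ITC (13.1 ± 1.13 FPKM) and rank 3 in vehicle (20.7 ± 0.729 FPKM). TRIM69 moved to rank 8 in ITC, against 21 in vehicle, and TRIM22 to rank 14, against 30. In all, 34 of the 66 genes had at least 1 FPKM in both groups. The summed CPM of the 66 was 2573 ± 154 in ITC and 2145 ± 217 in vehicle.

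**Figure D4:**
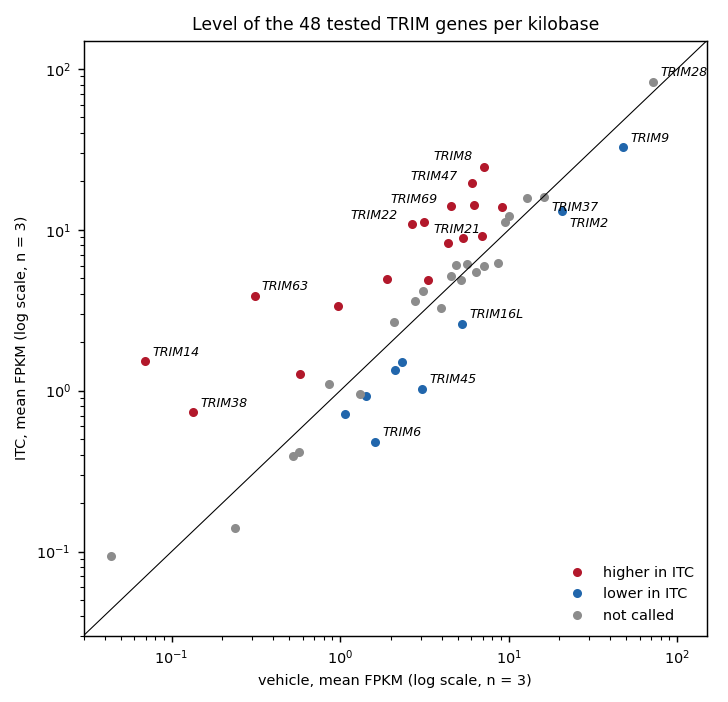
Mean FPKM in ITC (y axis) against vehicle (x axis), both on log scales and from 3 libraries per group, for the 48 tested TRIM genes; the line marks equal levels. TRIM28 and TRIM9 are highest in both groups, and TRIM14, TRIM63 and TRIM38 lie farthest above the line.

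Among the 6 most abundant by FPKM, TRIM37, a ligase that restrains centriole assembly, had 75.5, 94.5 and 86.1 CPM in ITC and 93.2, 82.9 and 85.3 CPM in vehicle. The vehicle range lay within the ITC range (-0.03 ± 0.15, edgeR adjusted p = 0.89). TRIM24 had 138, 150.3 and 136 CPM in ITC and 126, 124 and 98.7 CPM in vehicle, where vehicle replicate 3 was the low library. TRIM44, a member without a RING, averaged 155 ± 14.2 CPM in ITC and 128 ± 23.0 CPM in vehicle (0.27 ± 0.17). TRIM71, the stem cell regulator of RNA known as LIN41, averaged 41.0 ± 4.30 CPM in ITC and 44.0 ± 3.56 CPM in vehicle (-0.10 ± 0.15). Changes of the 22 genes not called ran from -0.82 ± 0.53 for TRIM73 to 1.07 ± 0.68 for TRIM7, with means of 0.756 CPM in ITC and 1.31 CPM in vehicle for TRIM73 and 0.665 CPM in ITC and 0.314 CPM in vehicle for TRIM7. TRIM23, which carries an ARF GTPase domain, was close to the threshold (-0.49 ± 0.21, edgeR adjusted p = 0.080). It was called in 6 of the 15 alternative fits, among them those without ITC replicate 3 (-0.66, adjusted p = 0.022), without vehicle replicate 1 (-0.63, adjusted p = 0.026), with upper quartile scaling (-0.63, adjusted p = 0.035), with library size alone (-0.71, adjusted p = 0.019) and with no filter (-0.50, adjusted p = 0.029), in a range of 0.0036 to 0.29. TRIM52 was called without vehicle replicate 1 (-0.67, adjusted p = 0.033) and with library size alone (-0.71, adjusted p = 0.030), in a range of 0.030 to 0.28, against -0.48 ± 0.23 with all libraries.

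The members were sorted by domain, with COS-box members and members without a RING kept apart whatever their C-terminal domain. The class with a RING and a PRY-SPRY domain therefore need not hold every PRY-SPRY member. It held 10 of the 17 rises and 1 of the 9 falls among 20 tested genes, with 9 not called and a median change of 0.47. TRIM6 was the member of this class that fell. The COS-box class, which binds microtubules, had 3 rises and 2 falls in 5 tested genes. The members with no C-terminal domain had 2 rises, TRIM8 and TRIM56, in 6 tested genes. NHL-repeat members had 1 rise and 1 fall in 4 tested genes, PHD-bromodomain members 1 fall in 4, and members with a single domain of another kind 2 falls in 5. The class without a RING had 1 rise, TRIM14, and 2 falls, TRIM16 and TRIM16L, in 4 tested genes. Among all tested genes, 20.4% rose and 19% fell, and whether any class differs from these shares was not tested.

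Neighbouring TRIM genes did not move as blocks. On the short arm of chromosome 11, TRIM6 (5596109 to 5612958), TRIM34 (5619764 to 5644398), TRIM5 (5663557 to 5938619) and TRIM22 (5689689 to 5737089) adjoin, and TRIM5 and TRIM22 overlap on opposite strands. In that cluster TRIM22 rose by 2.01 and TRIM5 by 0.39, whereas TRIM6 fell by 1.75 on the log2 scale. TRIM21 on the same chromosome (4384897 to 4393696) rose by 1.82, and TRIM68 (4598672 to 4608259) was not called (0.37 ± 0.21). On chromosome 17, TRIM47 (75874161 to 75878575) rose by 1.68 while TRIM65 (75880335 to 75897003), separated from it by 1759 bases, was not called (-0.24 ± 0.16). On chromosome 1, TRIM11 (228393673 to 228406840) rose by 0.54 and TRIM17, separated by 1099 bases, was not called (-0.45 ± 0.40). On chromosome 6, TRIM38 (25962802 to 25991226) rose by 2.41 and TRIM26 (30184455 to 30213427) by 0.59, and TRIM27 (0.22 ± 0.14) and TRIM39 (0.35 ± 0.20) between and beyond them were not called. Positions are on GRCh38 as deposited, and 41.7% of the TRIM39 exon bases overlap other genes.

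The 18 genes not tested had 2 to 57 counts over the 6 libraries and at most 13 in any library. TRIM4 had the most, with 13, 7 and 10 counts in ITC and 7, 7 and 13 in vehicle. TRIM49B had 6, 3 and 6 counts in ITC and none in vehicle (at least 7.09-fold higher, taking 3 counts as the limit for the vehicle libraries together). TRIM49, TRIM49B, TRIM49C and TRIM49D1 are near-identical copies on chromosome 11. Their reads may be misassigned to one another, which also limits the fold of TRIM49B. TRIM49 had 5, 4 and 9 counts in ITC and 0, 0 and 7 in vehicle, and TRIM49C and TRIM49D1 had at most 3 in a library. TRIM31, TRIM50, TRIM54 and TRIM34 had no count in ITC and 2 or 3 in vehicle. TRIM75P had 7 counts, all in vehicle replicate 3, and TRIM43 and TRIM43B had 12 and 13 counts in ITC and 12 and 10 in vehicle. TRIM29, TRIM51, TRIM51GP, TRIM55, TRIM64B and TRIM72 had 2 to 12 counts in all. A further 12 TRIM genes annotated as protein-coding in GENCODE 29 had no row and were not analysed here.

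Among relatives that carry other names, 5 of the 7 tested rose and 2 were not called, while 20.4% of all tested genes rose. This list was set with earlier results of these data known, and its difference from that share was not tested. PML is counted again in the nuclear body list below, and RNF135 in the RIG-I and MAVS list. MID1, a microtubule-binding member also known as TRIM18, averaged 282 ± 15.9 CPM in ITC and 45.9 ± 8.21 CPM in vehicle, a rise of 2.62 ± 0.17 (edgeR adjusted p = 2.3e-08). Its closest relative MID2 was not called (0.46 ± 0.23). PML, the scaffold of nuclear bodies also known as TRIM19, averaged 117 ± 33.3 CPM in ITC and 36.4 ± 6.998 CPM in vehicle, a rise of 1.68 ± 0.21. TRIML2 rose by 3.70 ± 0.50 and MEFV, the pyrin gene, by 2.83 ± 0.76, both from few vehicle counts. RNF135, a ligase of RIG-I, rose by 1.01 ± 0.25, and RNF207 was not called (-0.73 ± 0.49).

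The 11 tested genes of the RIG-I and MAVS pathway had a median change of 1.24, and 8 of them rose while 3 were not called; 20.4% of all tested genes rose. The RNA sensor IFIH1 rose by 3.54 ± 0.22, the kinase IKBKE by 2.02 ± 0.16, the RIG-I gene DDX58 by 1.52 ± 0.18 and the adaptor TRAF3 by 1.54 ± 0.18, whereas MAVS itself (0.36 ± 0.17) and TBK1 (0.12 ± 0.22) were not called. In the interferon signaling list, 9 of 10 tested genes rose, with a median of 1.33. IRF1 rose by 2.84 ± 0.20, JAK1 by 2.19 ± 0.17, IFNGR2 by 1.42 ± 0.15 and TYK2 by 1.32 ± 0.15, and IRF9 was not called (-0.48 ± 0.39). IFNB1, the gene of interferon beta, had no row. Both of these lists were set with earlier results of these data known, so they are not independent evidence of their direction. Whether they differ from the shares of all tested genes was not tested.

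For the 12 tested nuclear body genes the median change was 0.27. Every called gene of this list, 5 in number, was higher in ITC, and the remaining 7 had no call. Of all tested genes, 20.4% were higher and 19% lower. SP100 rose by 5.68 ± 0.27, to 18.0 ± 2.17 CPM in ITC, against 0.347 ± 0.0610 CPM in vehicle, SP140L by 4.88 ± 0.30 and DAXX by 1.495 ± 0.19, while HIPK2 (0.20 ± 0.19) and ATRX (-0.29 ± 0.18) were not called. The median change of the 16 ubiquitin-activating and conjugating enzymes was 0.16. Here too every call was a rise, for 6 enzymes, and the remaining 10 had no call. Whether either list differs from the shares of all tested genes was not tested. UBE2Z rose by 1.32 ± 0.15, UBE2E2 by 1.06 ± 0.15, UBE2L6, an enzyme of ISG15 conjugation, by 1.23 ± 0.19, and UBA7, which activates ISG15, by 1.43 ± 0.27. UBA1, the main ubiquitin-activating enzyme (0.35 ± 0.18), and UBE2D2 (-0.04 ± 0.14) were not called.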

How the data were processed

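Sample titles gave each library's treatment and replicate number. The raw counts per gene were deposited by the authors, per the file headers; for aligner, counter and strand the entry is not given in the sources used here. GRCh38 (hg38) and DESeq2 are named in the submitters' processing notes. The deposited normalized signal is the count divided by 1 size factor per library, and the deposited FPKM uses the listed gene length; FPKM served to rank genes. The authors' deposited log2 fold changes run vehicle over ITC and come with p-values, per the file headers; the authors' deposited table called 17 TRIM genes higher and 8 lower in ITC, a set that includes TRIM49B (adjusted p = 0.019), not tested here, and lacks TRIM5 (0.059) and TRIM59 (0.064). Columns of other samples numbered 0, as did rows without a gene name.

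The quasi-likelihood test of edgeR 4.0.16 (R 4.3.3) was run on the counts (filterByExpr, TMM, no covariates, Benjamini-Hochberg over all tested genes), with DESeq2 1.42.0 and limma 3.58.1 as alternatives; the edgeR step was checked on simulated data. The SE is the change divided by the square root of F. The floor of 3 counts covers counting error only. Total counts limit precision for genes near 1 CPM. Exon overlaps used GENCODE 29, whose positions matched for all 66 genes. Figures used Python 3.11.15 and matplotlib 3.10.9. The members and lists were chosen with earlier results of these data known. Library values are given for called genes averaging at least 1 CPM, for uncalled genes among the 6 highest by FPKM and for tested genes of the role lists; others are given as ranges, counts or means. From each pathway list, up to 4 called genes by smallest p and 2 uncalled by highest CPM were named; a few more were named after their values were seen. Replicates are separate libraries of 1 line. Sample titles name no capsule batch, so the batch of each library is unknown here.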

Additional observations from a re-analysis of the deposited data

How the results depend on the processing

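Of the 26 called TRIM genes, 18 were called in all 15 alternative fits (14 that rose, 4 that fell), and none of the 26 changed sign in any of them. The other 8 (TRIM5, TRIM9, TRIM11, TRIM16, TRIM26, TRIM46, TRIM59 and TRIM66) lost the call in at least 1. Fits that left out 1 library called 20 to 25 TRIM genes, 15 to 16 higher and 5 to 9 lower, with 5 lower without ITC replicate 1 and without vehicle replicate 2. Of all genes, these fits called 5136 to 6955, against 6599 in the main fit. At an adjusted p under 0.01, 19 TRIM genes were called, 15 higher and 4 lower. Of all genes, 4474 were then called, 2392 higher and 2082 lower. With library size alone, 7086 of all genes were called, 2282 higher and 4804 lower. DESeq2 called 25 TRIM genes and 6678 of all genes, and limma-voom 25 and 6544. Adding the relatives with other names to the main fit's count gave 31. The deviations of same-numbered libraries correlated at 0.27, 0.01 and 0.38, and those of differently numbered libraries at -0.34 to 0.07. Replicates 1 and 3 thus correlated most with their own number, and replicate 2 did not. The labels do not say that the number marks the capsule batch, so the main fit had no block and may leave out a pairing. The fit with the replicate block called 8416 of all genes and 29 TRIM genes. These were the 26 and also TRIM3 (edgeR adjusted p = 0.020), TRIM23 (0.0036) and TRIM24 (0.042). With library size alone, TRIM33 (0.030) and TRIM65 (0.032) were also called. No row was a readthrough gene, so leaving those out was not run. Sign changes occurred for genes not called in the fit of all libraries, and the cause was not tested: with library size alone, TRIM27 was at -0.010, TRIM28 at -0.029, TRIM35 at -0.13 and TRIM41 at -0.074; with upper quartile scaling, TRIM35 was at -0.042. Over the fits that left out 1 library, TRIM28 ranged from -0.019 to 0.35, TRIM35 from -0.033 to 0.17, TRIM37 from -0.099 to 0.066 and TRIM74 from -1.26 to 0.0070.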
